A study of Mus musculus with 14 samples.

Results

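The genes of cholesterol synthesis, uptake and efflux were followed through subcutaneous 4T1 tumours of mice given cyclophosphamide. 4T1 is a mouse mammary carcinoma line, and cyclophosphamide (CTX) is an alkylating drug that crosslinks DNA. The 31 genes were chosen by symbol: enzymes of sterol synthesis, the regulators of SREBP2, sterol carriers, and genes of the liver X receptors (LXR) and of efflux. All 31 were found among the 54532 genes of the count table, and all 31 were among the 15360 that passed the filter on low counts. They comprised 7 enzymes of the mevalonate steps, 11 of the squalene and sterol steps, 4 SREBP2 regulators, 4 genes of sterol transport and esterification, and 5 LXR and efflux genes. Bulk RNA was sequenced in 14 libraries of whole tumours: 4 from PBS, 5 from 100 mg/kg CTX (CTX100) and 5 from 140 mg/kg CTX (CTX140). Per the labels, 1000000 cells were implanted at the mammary site, and injections into the peritoneum began after 9 days, at a tumour volume of about 100 mm3. Each group had 3 cycles, 6 days apart, of PBS alone or of drug in PBS, and the tumours were collected 3 days after the last cycle. No genetic change of the cells or the host is named in the labels, so every group shared the implanted line and the injection schedule. One implanted line stands for the carcinoma. The labels do not say whether each library came from a separate mouse, so the libraries may not be independent. A p-value here sets a group difference against the spread between these libraries, not between mice.

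Cholesterol is built from acetyl-CoA through mevalonate, isoprenoids, squalene and lanosterol, and most of the enzymes are encoded by targets of the transcription factor SREBP2. When the endoplasmic reticulum holds little sterol, the escort protein SCAP carries SREBP2 to the Golgi, where it is cut and released to the nucleus. When sterol is plentiful, the INSIG proteins hold the SCAP-SREBP2 complex back. Oxysterols activate the liver X receptors, which raise the transporters that export sterol from the cell, a route that is prominent in macrophages.

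Library totals, in units of 1000000 counts, spanned 15.2 to 17.1 for PBS, 15.9 to 19.3 for CTX100 and 14.4 to 18.8 for CTX140. Levels are given as CPM, that is counts for each 1000000 of the library total after TMM scaling, and levels of different genes are set side by side only as the deposited FPKM, which takes gene length into account. A gene is called changed where edgeR's quasi-likelihood test gave a Benjamini-Hochberg adjusted p below 0.05 over the 15360 genes, and adjusted p-values below are of that kind. Fold changes are fitted log2 values with their standard error (SE). Markers of the implanted carcinoma were present in every group: the 9 epithelial genes, Krt8 and Krt18 among them, summed to 1882 to 2653 CPM in PBS, 2094 to 2523 CPM in CTX100 and 1433 to 2164 CPM in CTX140. Krt8, Krt18 and Spint2 made up most of that sum, and less abundant genes of the list rose. Epcam had 7.55 to 61.9 CPM in CTX140, against 0.546 to 2.77 CPM in PBS, and Krt19 had 13.8 to 125 CPM in CTX140, against 1.54 to 6.03 CPM in PBS. These and Cldn7 were the 3 of the 9 called higher in CTX140 against PBS, beside 11.1% of all tested genes. All 3 were highest in CTX140 1, and their part in the results was not tested. In whole tumours, fewer cells of a type and less RNA per cell cannot be told apart.

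Promoters of 5 members called lower in CTX140 against PBS are shown first. The windows, from RefSeq on build GRCm38.p6, reach from 250 bases before to 50 bases after the annotated start and read 5′ to 3′ on the gene's strand. Capitals mark an SREBP-type element, searched as TCACNCCAC, and NF-Y boxes, searched as CCAAT, on both strands, so that a box on the opposite strand reads ATTGG. The Hmgcs1 window is chr13:119690101-119690400, plus strand. Those of Idi1 and Insig1 are chr13:8885356-8885655 and chr5:28071162-28071461, both on the plus strand. The Cyp51 window is chr5:4104648-4104947, minus strand, and the Srebf2 window is chr15:82147019-82147318, plus strand.
Hmgcs1: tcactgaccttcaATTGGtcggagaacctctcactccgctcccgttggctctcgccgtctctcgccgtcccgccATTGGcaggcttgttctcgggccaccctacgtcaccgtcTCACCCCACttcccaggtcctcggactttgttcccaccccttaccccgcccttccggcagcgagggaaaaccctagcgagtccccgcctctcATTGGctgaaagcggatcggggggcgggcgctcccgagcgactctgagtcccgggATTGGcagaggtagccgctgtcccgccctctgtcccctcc
Idi1: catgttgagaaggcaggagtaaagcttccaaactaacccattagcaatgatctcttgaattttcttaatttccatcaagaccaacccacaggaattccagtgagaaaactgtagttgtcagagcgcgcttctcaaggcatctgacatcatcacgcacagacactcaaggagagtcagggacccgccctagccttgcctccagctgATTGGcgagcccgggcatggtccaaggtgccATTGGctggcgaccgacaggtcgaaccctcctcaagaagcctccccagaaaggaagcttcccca
Cyp51: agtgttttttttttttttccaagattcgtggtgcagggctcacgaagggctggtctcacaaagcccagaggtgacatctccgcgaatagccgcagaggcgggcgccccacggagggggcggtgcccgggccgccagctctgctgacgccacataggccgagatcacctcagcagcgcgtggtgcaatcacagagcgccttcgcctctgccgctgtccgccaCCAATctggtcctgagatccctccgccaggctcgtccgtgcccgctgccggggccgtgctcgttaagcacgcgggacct
Insig1: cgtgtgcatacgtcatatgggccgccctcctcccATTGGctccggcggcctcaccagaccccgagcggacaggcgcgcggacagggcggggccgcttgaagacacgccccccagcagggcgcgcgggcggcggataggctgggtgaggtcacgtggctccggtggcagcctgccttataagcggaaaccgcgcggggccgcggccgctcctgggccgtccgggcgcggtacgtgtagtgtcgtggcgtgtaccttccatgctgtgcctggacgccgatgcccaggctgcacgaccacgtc
Srebf2: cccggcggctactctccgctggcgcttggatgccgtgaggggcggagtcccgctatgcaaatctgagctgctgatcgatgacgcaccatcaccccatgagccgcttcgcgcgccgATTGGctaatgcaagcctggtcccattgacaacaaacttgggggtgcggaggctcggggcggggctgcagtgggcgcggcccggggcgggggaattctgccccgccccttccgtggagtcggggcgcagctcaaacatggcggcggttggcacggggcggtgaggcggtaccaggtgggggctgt

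In the Hmgcs1 window the SREBP-type element begins 137 bases before the start, and 3 NF-Y boxes begin 237, 176 and 45 bases before it, with another 11 bases after it. Idi1 has NF-Y boxes 45 and 14 bases before its start, Cyp51 has 1 at 29 bases, Insig1 has 1 at 216 bases and Srebf2 has 1 at 135 bases. Of the 31 members, 25 had a promoter in the RefSeq table. The 6 without were Fdps, Fdft1, Sqle, Stard4, Npc1 and Abcg1. Among those 25 genes, 20 held an NF-Y box, against 41.1% of all 27025 genes in the table. The box was also in members not called in CTX140 against PBS: Pmvk, Mvd, Tm7sf2, Ebp, Npc2, Soat1 and Mylip. The strict SREBP-type letters were in 1 of the 25, Hmgcs1, against 1.44% of all genes. An LXR-type repeat, searched as 2 copies of AGGTCA with 4 bases between them on either strand, was in 0 of the 25 and in 0.0148% of all genes. The shares over all 32851 promoter windows were 37.4%, 1.24% and 0.0152%. In the windows shown, the marked motifs do not overlap. These matches describe letters in the windows, and no binding was measured.

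In PBS libraries the members covered a wide range of levels. Npc2, a soluble carrier that takes cholesterol out of the lysosome, had the highest mean deposited FPKM, 186.0, and the LXR gene Nr1h2 followed at 28.0 FPKM. Among the 18 synthesis enzymes, Fdft1, Hmgcs1 and Acat2 were highest, with mean levels of 18.4, 17.0 and 16.7 FPKM in PBS. Tm7sf2 had 1.05 FPKM and Fdps had 0.285 FPKM. Fdps, which encodes farnesyl diphosphate synthase, gathered 185 counts over all 14 libraries, so its values carry a wide counting error. Fdps also shares its strand with the overlapping Gm43738, a protein-coding gene with 0 counts. How reads that fit both genes were counted is not given in the sources used here. Summed over the 18 enzymes, the deposited FPKM was 162.0, 177.4, 133.2 and 171.5 in the PBS libraries, 103.3, 122.0, 143.0, 132.5 and 113.1 in the CTX100 libraries and 103.1, 102.7, 100.9, 104.7 and 91.8 in the CTX140 libraries. All 5 CTX140 sums lay below the 4 PBS sums, while 1 CTX100 library, CTX100 3, reached into the PBS range. Averaged by group, this sum was 161.0 ± 19.6 for 4 PBS libraries, 123 ± 15.6 for 5 CTX100 libraries and 101 ± 5.14 for 5 CTX140 libraries (mean ± SD). The CTX140 libraries were the most alike in this sum.

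**Figure D1:**
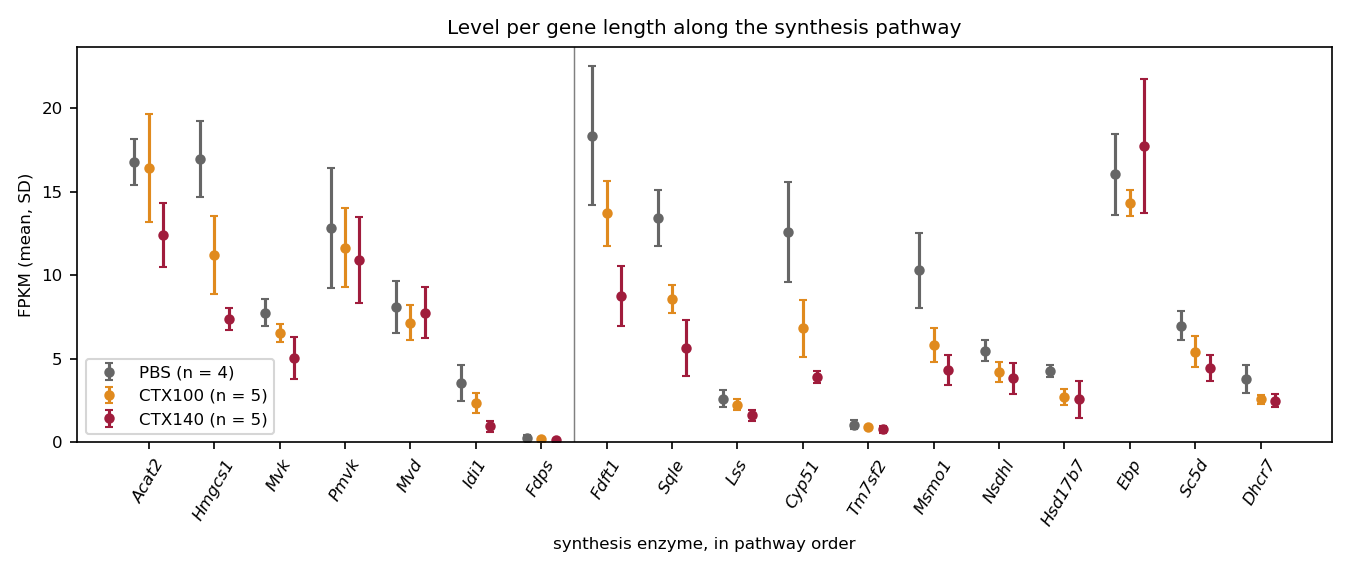
Mean deposited FPKM (vertical axis, points, with SD bars) of the 18 listed synthesis enzymes in pathway order (horizontal axis) in PBS, CTX100 and CTX140 libraries. The means stepped down with dose for 16 of the 18 enzymes; Mvd and Ebp were the exceptions, and Fdps lay close to 0 in every group.

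Tumours given 140 mg/kg CTX had lower transcripts of most of the listed synthesis enzymes than tumours given PBS. Of the 31 members, 16 were called lower, against 10.1% of all tested genes, and 1 was called higher, against 11.1%. Among the 18 synthesis enzymes, edgeR called 12 lower, DESeq2 called 13 lower, and 14 were lower at an unadjusted edgeR p under 0.05. None was higher by any of these criteria. The median log2 fold change of the 31 members was -0.58, that of the 18 enzymes -0.68, and that of all tested genes 0.03. In 13 of the 31 members every CTX140 library lay below every PBS library, which held for 6.91% of all tested genes. The largest decreases were in Idi1, Cyp51, Insig1 and Stard4, whose fitted CTX140 levels were 26.6, 31.2, 32.8 and 39.4% of those in PBS. Over all 14 libraries, the lowest value was in a CTX140 library for 17 of the 18 enzymes, and the highest was in a PBS library for 15.

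**Figure D2:**
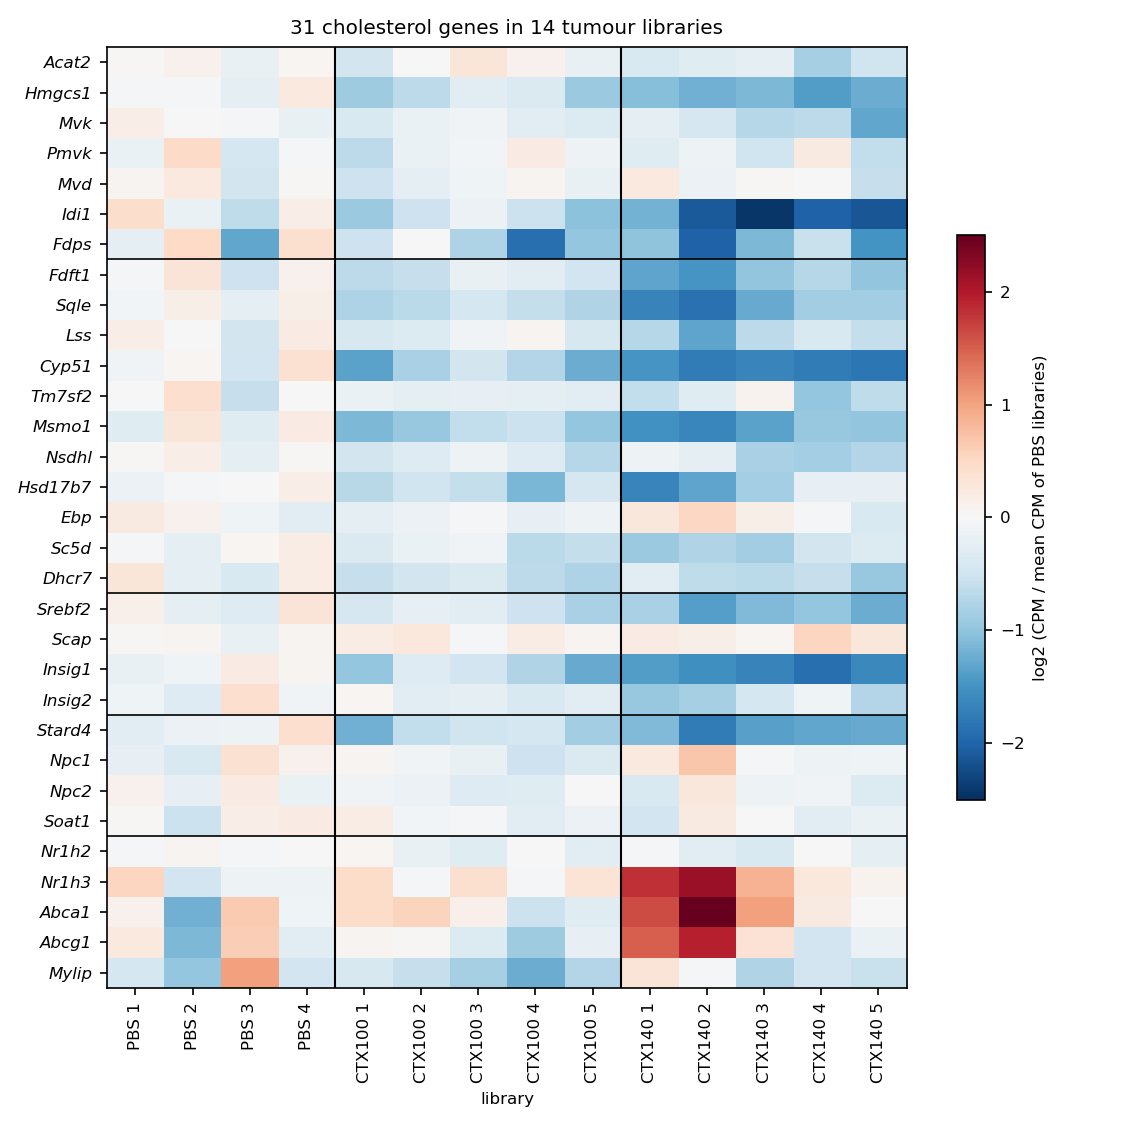
Level of each of the 31 genes (rows, grouped by role) in each of the 14 libraries (columns), as log2 of its CPM over the mean CPM of the PBS libraries; blue is below and red above the PBS mean. Most synthesis rows darken to blue in CTX140, while rows such as Ebp, Mvd and Pmvk hold CTX140 libraries above the PBS mean. The highest values of Nr1h3, Abca1 and Abcg1 are in CTX140 1 and CTX140 2.

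Some of the listed enzymes of the mevalonate route fell, and the list does not hold every step of the route. Of the 7 listed, 3 were called lower in CTX140 against PBS, with a median log2 fold change of -0.63 over the 7. Hmgcs1 (ENSMUSG00000093930, chr13:119690379-119708260), which encodes the cytosolic synthase that makes HMG-CoA, had 77.0, 76.4, 66.6 and 92.9 CPM in PBS, 42.4, 49.7, 65.0, 60.9 and 41.2 CPM in CTX100, and 37.3, 33.8, 36.1, 29.5 and 32.9 CPM in CTX140. Every CTX140 library was below every PBS library and below every CTX100 library, and every CTX100 library was below every PBS library. The mean was 33.9 ± 3.01 CPM in CTX140 (SD, n = 5) and 78.2 ± 10.9 CPM in PBS (n = 4), and the fitted change was -1.21 ± 0.15 (SE) on the log2 scale (edgeR adjusted p = 0.000109).

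Idi1 (ENSMUSG00000058258, chr13:8885501-8892451), the isomerase that makes dimethylallyl diphosphate, had 16.9, 11.1, 8.11 and 13.9 CPM in PBS, 6.58, 8.78, 11.4, 8.63 and 6.12 CPM in CTX100, and 5.51, 2.91, 2.33, 3.07 and 2.84 CPM in CTX140. All CTX140 values were below all others, while the CTX100 and PBS libraries overlapped. Its log2 fold change between CTX140 and PBS was -1.91 ± 0.28 (SE) (edgeR adjusted p = 0.000371), the largest among the members. The near-copy Idi2 held 21 counts in all, against 1805 for Idi1.

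Mvk (ENSMUSG00000041939, chr5:114444269-114460591), mevalonate kinase, had 23.5, 21.0, 20.5 and 18.3 CPM in PBS, 15.9, 18.5, 19.5, 17.4 and 16.5 CPM in CTX100, and 17.6, 15.5, 12.8, 13.2 and 8.51 CPM in CTX140. The highest CTX140 value, 17.6 CPM, was below the lowest PBS value, 18.3 CPM, and the CTX100 libraries overlapped both groups. The log2 fold change was -0.63 ± 0.17 (SE) (edgeR adjusted p = 0.0169); it was called with all 14 libraries in the fit but had an adjusted p of 0.0518 with only the CTX140 and PBS libraries. The remaining mevalonate enzymes were not called. Acat2, the cytosolic thiolase, averaged 31.7 ± 4.81 CPM in CTX140 (SD, n = 5) and 42.8 ± 3.64 CPM in PBS (n = 4), with no overlap between the groups and an edgeR adjusted p of 0.0513. The near-copy Acat3 held 300 counts in all, against 8978 for Acat2. Pmvk and Mvd, which encode the next kinase and the decarboxylase, had log2 fold changes of -0.24 and -0.07, with 95% intervals from -0.65 to 0.18 and from -0.42 to 0.29. Fdps had a fold change of -1.16 ± 0.44 (SE) on the log2 scale (edgeR adjusted p = 0.0709).

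Of the 11 listed enzymes of the squalene and sterol steps, 9 were called lower in CTX140 against PBS. The median log2 fold change of the 11 was -0.70. Cyp51 (ENSMUSG00000001467, chr5:4081145-4104746), lanosterol 14-alpha-demethylase, had 52.6, 57.7, 40.0 and 72.9 CPM in PBS, 22.1, 31.7, 40.4, 33.5 and 23.6 CPM in CTX100, and 20.1, 16.5, 17.7, 16.6 and 16.0 CPM in CTX140. The CTX140 libraries, 16.0 to 20.1 CPM, were below all 9 others, and CTX100 3 overlapped the lowest PBS library. CTX140 differed from PBS by -1.68 ± 0.19 (SE) on the log2 scale (edgeR adjusted p = 6.48e-05). Cyp51 overlaps Akap9 on the other strand, with 7072 counts for Akap9 and 7665 for Cyp51, and the strand setting of the counting is not given in the sources used here.

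Sqle (ENSMUSG00000022351, chr15:59315077-59331192), squalene epoxidase, had 70.9, 83.1, 62.8 and 82.2 CPM in PBS, 43.9, 47.0, 55.0, 49.5 and 44.2 CPM in CTX100, and 23.5, 20.5, 31.3, 40.8 and 40.7 CPM in CTX140. The 3 groups did not overlap at all: every CTX140 value was below every CTX100 value, and every CTX100 value below every PBS value. CTX140 4 and CTX140 5, at 40.8 and 40.7 CPM, were the highest of their group. The log2 fold change between CTX140 and PBS was -1.25 ± 0.18 (SE) (edgeR adjusted p = 0.000371).

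Msmo1 (ENSMUSG00000031604, chr8:64718139-64733792), a sterol C4-methyl oxidase, had 51.5, 77.8, 51.4 and 73.1 CPM in PBS, 29.3, 33.0, 41.6, 44.0 and 32.5 CPM in CTX100, and 22.3, 20.4, 25.3, 32.8 and 32.2 CPM in CTX140. All treated libraries lay below all PBS libraries, and the 2 doses overlapped. Msmo1 averaged 26.6 ± 5.65 CPM in CTX140 (SD, n = 5) and 63.5 ± 14.0 CPM in PBS (n = 4), and the fitted log2 change was -1.25 ± 0.18 (SE) (edgeR adjusted p = 0.000367).

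Fdft1 (ENSMUSG00000021273, chr14:63145150-63179578), squalene synthase, had 75.9, 96.9, 54.3 and 84.4 CPM in PBS, 49.8, 52.3, 68.9, 65.0 and 55.6 CPM in CTX100, and 31.1, 28.0, 39.3, 47.3 and 39.6 CPM in CTX140. The CTX140 libraries were below all others, and PBS 3 fell inside the CTX100 range. The log2 fold change between CTX140 and PBS was -1.07 ± 0.17 (SE) (edgeR adjusted p = 0.000765). Fdft1 overlaps the protease gene Ctsb on the other strand, which held 415649 counts against 13029 for Fdft1, so reads of Ctsb counted to Fdft1 were not separable.

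Of the other 7 enzymes of these steps, Lss, Sc5d, Dhcr7, Hsd17b7 and Nsdhl were called lower, with log2 fold changes of -0.70, -0.65, -0.61, -0.73 and -0.51. Lss encodes lanosterol synthase, Sc5d and Dhcr7 act at the last steps, and Nsdhl and Hsd17b7 work with Msmo1 in removing the C4 methyl groups. Hsd17b7 was spread within CTX140, with 6.95, 8.79, 12.1, 18.9 and 18.8 CPM, against 19.8, 21.0, 22.1 and 24.3 CPM in PBS. CTX140 4 and CTX140 5 were close to PBS, and leaving out CTX140 1 and CTX140 2 together gave a log2 fold change of -0.39 with an adjusted p of 0.157. Hsd17b7 also lost its call without PBS 1, PBS 2, PBS 3, PBS 4, CTX140 1, CTX140 2 or CTX140 3 (adjusted p 0.0584 to 0.116). Nsdhl lost its call without any 1 PBS library or without CTX140 3, CTX140 4 or CTX140 5 (adjusted p 0.053 to 0.112), and Dhcr7 lost its call without PBS 1 or PBS 4 (adjusted p 0.0534 and 0.0554). Tm7sf2 and Ebp, a reductase and an isomerase of the ring, were not called, at -0.44 ± 0.23 (SE) and 0.14 ± 0.16 (SE). Tm7sf2 shares its strand with the overlapping Vps51, with 418 counts for Vps51 and 1170 for Tm7sf2. Ebp had the only positive value among the 18 enzymes, with a 95% interval from -0.16 to 0.45. It was 0.14 with all libraries and -0.07 without CTX140 1 and CTX140 2.

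**Figure D3:**
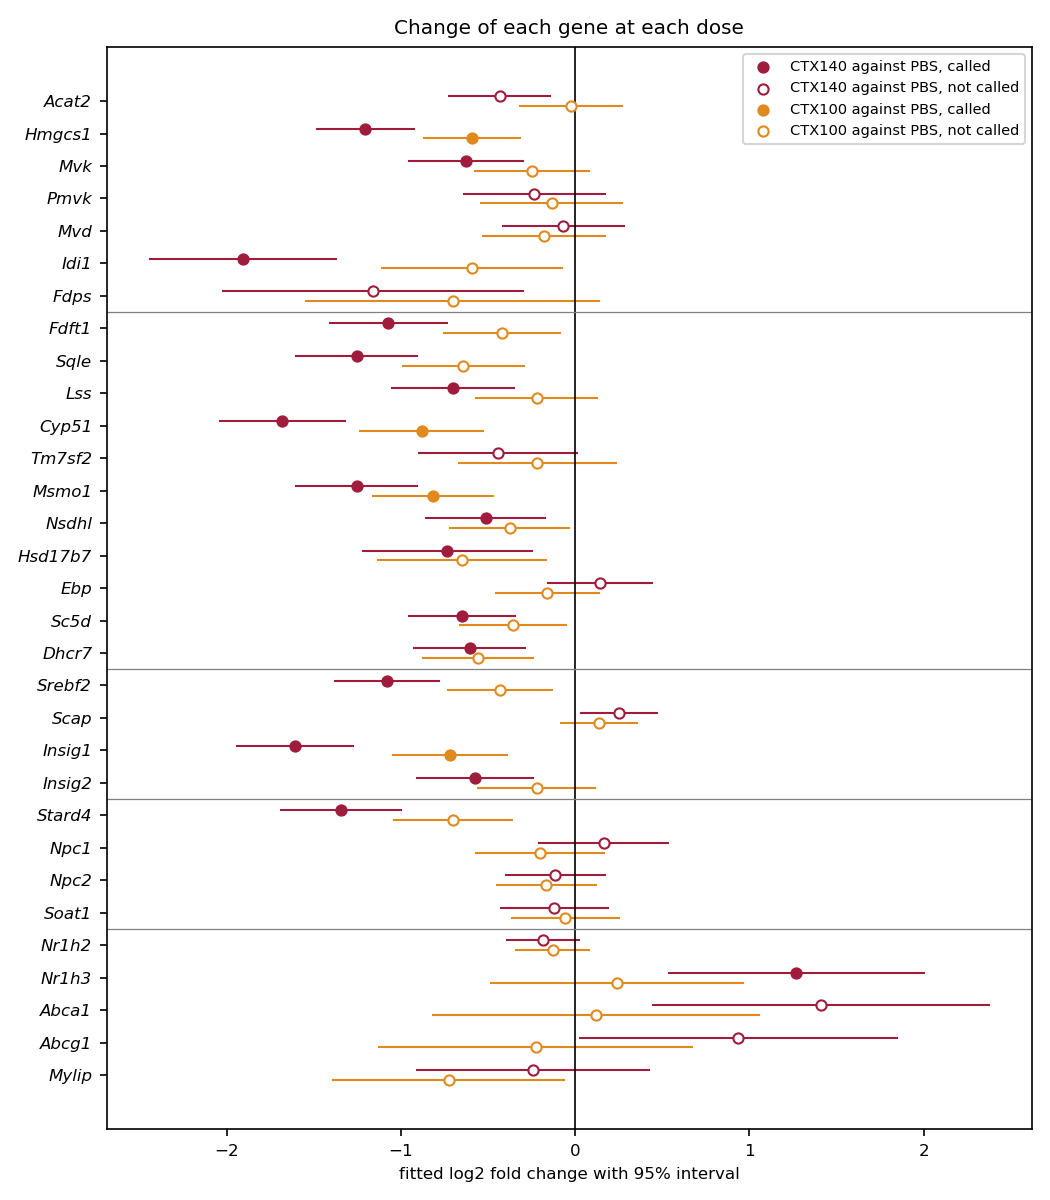
Fitted log2 fold change (horizontal axis) with its 95% interval for each member (rows) in CTX140 against PBS and in CTX100 against PBS; filled points were called. Most synthesis genes lie left of 0 at both doses and further left at 140 mg/kg, whereas Nr1h3 and Abca1 lie right of 0 at 140 mg/kg.

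The regulators moved unequally. Of the 4, Srebf2, Insig1 and Insig2 were called lower in CTX140 and Scap was not. Srebf2 (ENSMUSG00000022463, chr15:82147181-82205379), which encodes SREBP2 itself, had 119.7, 94.1, 88.2 and 137 CPM in PBS, 81.7, 95.8, 89.8, 76.5 and 62.8 CPM in CTX100, and 62.4, 42.4, 51.2, 56.4 and 46.7 CPM in CTX140. The CTX140 libraries lay below all 9 others, with CTX140 1 at 62.4 CPM just under CTX100 5 at 62.8 CPM. CTX140 differed from PBS by -1.08 ± 0.16 (SE) on the log2 scale (edgeR adjusted p = 0.000367).

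Insig1 (ENSMUSG00000045294, chr5:28071363-28078662), the sterol-regulated retention protein, had 39.3, 41.5, 52.0 and 47.0 CPM in PBS, 22.9, 35.9, 32.3, 26.6 and 18.7 CPM in CTX100, and 17.0, 15.6, 14.1, 12.2 and 14.7 CPM in CTX140. No library of 1 group reached the range of another, the only member besides Sqle and Hmgcs1 with that order in all 3 comparisons. Its CTX140 libraries were within 12.2 to 17.0 CPM, and the log2 fold change against PBS was -1.61 ± 0.17 (SE) (edgeR adjusted p = 4.84e-05).

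Insig2 (ENSMUSG00000003721, chr1:121304353-121332589), a paralogue of Insig1, had 80.0, 69.3, 116 and 81.9 CPM in PBS, 89.2, 71.4, 73.7, 66.6 and 71.1 CPM in CTX100, and 44.7, 49.0, 64.3, 80.9 and 52.1 CPM in CTX140. CTX140 4 lay within the PBS range, and PBS 3 was the highest of all. The log2 fold change was -0.58 ± 0.17 (SE) (edgeR adjusted p = 0.0277), and the call was lost without PBS 3 (-0.41, adjusted p 0.121), PBS 4 (adjusted p 0.0507), CTX140 1 (0.0548), CTX140 2 (0.0625) or CTX140 5 (0.0509). Scap averaged 62.9 ± 8.65 CPM in CTX140 (SD, n = 5) and 52.8 ± 4.32 CPM in PBS (n = 4), and its log2 fold change was 0.25 ± 0.11 (SE) with an edgeR adjusted p of 0.124.

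Among the transport and storage genes, 1 of 4 was called. Stard4 (ENSMUSG00000024378, chr18:33199355-33213862), a cytosolic carrier that moves cholesterol between membranes, had 45.6, 49.7, 50.5 and 73.5 CPM in PBS, 23.8, 35.8, 38.6, 40.4 and 30.0 CPM in CTX100, and 25.3, 16.2, 21.5, 22.1 and 22.9 CPM in CTX140. Treated libraries of both doses lay below all PBS libraries, and CTX140 1 overlapped the lowest CTX100 library. CTX140 differed from PBS by -1.34 ± 0.18 (SE) on the log2 scale (edgeR adjusted p = 0.000223). Npc1 and Npc2, which move cholesterol out of the lysosome, and Soat1, which esterifies it for storage, were not called in any comparison. In CTX140 against PBS their log2 fold changes were 0.16, -0.11 and -0.12, and the 95% intervals were from -0.21 to 0.54, from -0.40 to 0.18 and from -0.43 to 0.20. Npc1 overlaps Rmc1 on the other strand, with 5670 counts for Rmc1 and 6786 for Npc1.

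**Figure D4:**
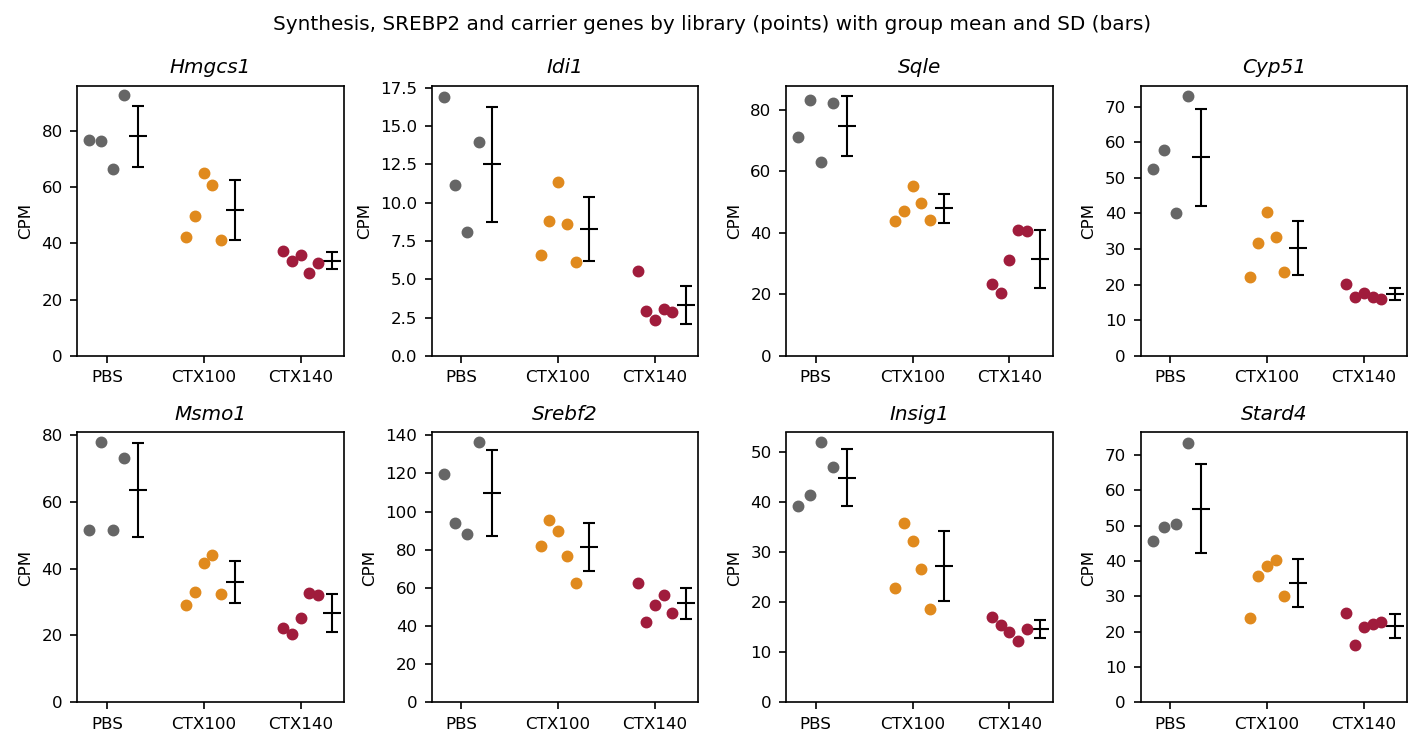
CPM of 8 members (1 panel each, vertical axes start at 0) in each library of PBS, CTX100 and CTX140 (points), with group mean and SD beside them. Group means step down with dose in all 8 panels. The CTX140 points lie below every other library in all panels but Msmo1 and Stard4, where they overlap CTX100.

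The LXR and efflux members held 1 call, and it was upward. None of the 5 LXR and efflux members was called lower in CTX140 by edgeR, DESeq2 or at an unadjusted edgeR p under 0.05. By edgeR 1 was called higher, and the median log2 fold change of the 5 was 0.94. Over all tested genes, 10.1% were called lower and 11.1% higher, so these counts are no result about the 5. Nr1h3 (ENSMUSG00000002108, chr2:91184061-91202834), which encodes LXR alpha, had 12.5, 6.22, 7.97 and 7.96 CPM in PBS, 11.9, 8.36, 11.4, 8.50 and 10.9 CPM in CTX100, and 30.7, 38.4, 15.8, 10.4 and 9.26 CPM in CTX140. CTX140 1 and CTX140 2 stood above all other libraries, CTX140 3 also exceeded all PBS libraries, and CTX140 4 and CTX140 5 lay within the PBS range. Nr1h3 averaged 20.9 ± 13.0 CPM in CTX140 (SD, n = 5) and 8.66 ± 2.68 CPM in PBS (n = 4), and the fitted log2 change was 1.27 ± 0.38 (SE) (edgeR adjusted p = 0.0277). The call was lost without PBS 2 (adjusted p 0.0647), PBS 3 (0.078), PBS 4 (0.0825), CTX140 1 (0.0545) or CTX140 2 (0.0612). Without CTX140 1 and CTX140 2 together, a choice made after seeing the data, the log2 fold change was 0.45 ± 0.24 (edgeR adjusted p = 0.212).

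Abca1 (ENSMUSG00000015243, chr4:53030787-53159895), the transporter that loads cholesterol onto lipid-poor apolipoprotein, had 55.3, 22.4, 81.3 and 47.7 CPM in PBS, 70.9, 76.4, 56.3, 35.4 and 41.7 CPM in CTX100, and 160.0, 309, 105, 60.7 and 52.0 CPM in CTX140. The group ranges overlapped, and CTX140 2 alone was 308.9 CPM. The log2 fold change between CTX140 and PBS was 1.41 ± 0.50 (SE), with a 95% interval from 0.44 to 2.38 and an edgeR adjusted p of 0.056. It passed the threshold without CTX140 4 (1.58, adjusted p 0.0361) or without CTX140 5 (1.62, adjusted p 0.0264), and was 0.49 ± 0.39 (adjusted p 0.407) without CTX140 1 and CTX140 2.

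Abcg1 (ENSMUSG00000024030, chr17:31057698-31115777), which exports sterol to mature lipoprotein particles, had 28.0, 10.9, 36.3 and 19.7 CPM in PBS, 25.0, 24.2, 18.6, 12.8 and 20.6 CPM in CTX100, and 66.6, 91.5, 30.5, 17.1 and 21.0 CPM in CTX140. Again CTX140 1 and CTX140 2 were the highest, and the other CTX140 libraries lay within the PBS range. Its log2 fold change of 0.94 ± 0.47 (SE) had an edgeR adjusted p of 0.167, and it was -0.05 ± 0.34 without those libraries.

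Mylip (ENSMUSG00000038175, chr13:45389742-45412022), an LXR-induced ubiquitin ligase that limits lipoprotein uptake, had 24.1, 16.8, 66.5 and 23.4 CPM in PBS, 24.7, 21.9, 18.4, 13.9 and 19.7 CPM in CTX100, and 41.0, 31.8, 19.4, 23.5 and 22.3 CPM in CTX140. PBS 3 stood apart at 66.5 CPM, and all other PBS values lay within the range of the treated libraries. With a log2 fold change of -0.24 ± 0.34 (SE) (edgeR adjusted p = 0.643), no difference between CTX140 and PBS was detectable. Without PBS 3 the log2 fold change was 0.36 ± 0.24 (SE) (edgeR adjusted p = 0.339). Nr1h2 (ENSMUSG00000060601, chr7:44549616-44553951), which encodes LXR beta, had 91.9, 98.5, 91.7 and 95.1 CPM in PBS, 98.2, 82.5, 76.8, 95.4 and 78.1 CPM in CTX100, and 91.7, 77.2, 72.7, 94.3 and 79.3 CPM in CTX140. Its libraries overlapped throughout, and the 95% interval of its log2 fold change ran from -0.40 to 0.03.

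The summed macrophage markers stood well above PBS in CTX140 2 only. The 10 markers, Adgre1 and Csf1r among them, summed to 1901, 1280, 2035 and 1503 CPM in PBS 1 to 4, 1587, 1437, 1602, 762 and 1049 CPM in CTX100 1 to 5, and 2064, 4257, 1718, 896 and 999 CPM in CTX140 1 to 5. The CTX140 2 sum was the highest, and that of CTX140 1 was close to that of PBS 3. The sums of CTX140 4 and CTX140 5 were lower than that of every PBS library. Single markers differed from the sum. Cd68, at most 119 CPM in PBS, had 174, 379, 184, 103 and 145 CPM in CTX140 1 to 5. C1qa and C1qb exceeded every PBS library in CTX140 1 as well as in CTX140 2. Mrc1 and Cd163 had 416 and 31.6 CPM in CTX140 2, below PBS 3 with 430 and 94.8 CPM. Of the 10, 1 was called higher in CTX140 against PBS and none in CTX100, near the shares over all tested genes, 11.1% and 1.20%. None was at 0 in any library. Of 7 T cell markers, 3 were called higher in CTX140 against PBS, and all 7 log2 fold changes were positive, with a median of 1.80. Their sums also spread within CTX140, from 34.6 to 364.5 CPM, against 22.9 to 57.6 CPM in PBS. The highest sum was in CTX140 1, and the next, 96.6 CPM, was in CTX140 2. What part these cells had in the efflux values was not tested.

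**Figure D5:**
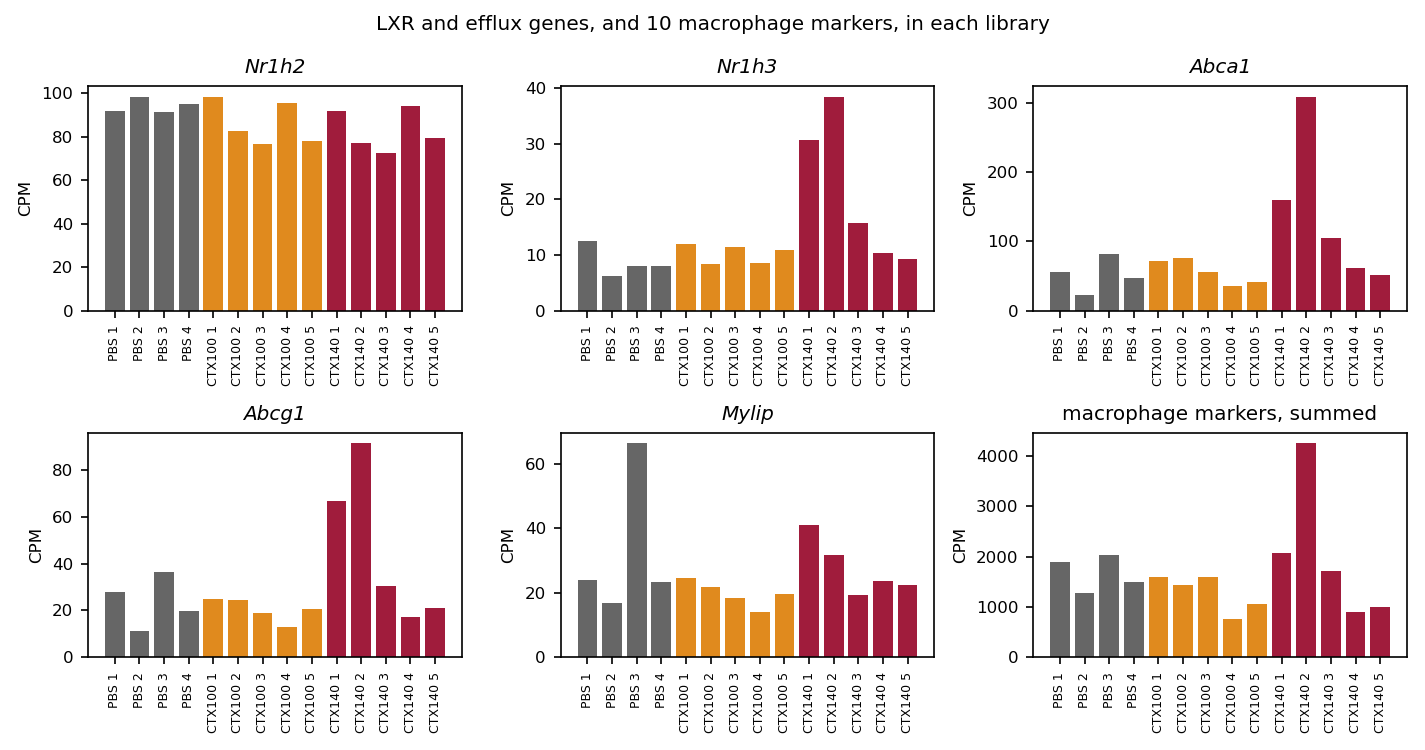
CPM of the 5 LXR and efflux genes and the summed CPM of 10 macrophage markers (panels, vertical axes start at 0) in each library (bars). CTX140 1 and CTX140 2 carry the highest bars for Nr1h3, Abca1 and Abcg1. The marker sum is highest in CTX140 2, with 4257 CPM, while CTX140 1, with 2064 CPM, is close to PBS 3, with 2035 CPM. PBS 3 carries the highest Mylip bar.

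At 100 mg/kg the decreases were smaller and few were called. In CTX100 against PBS, 4 of the 31 members were called lower, against 0.397% of all tested genes, and 0 were called higher by edgeR, against 1.20%. DESeq2 called 7 members lower and 0 higher. At an unadjusted edgeR p under 0.05, 12 members were lower and 0 higher, and 2748 of the 15360 tested genes had such a p in either direction. Across the members, 28 of 31 fold changes were negative, with a median of -0.25 on the log2 scale, against -0.01 for all tested genes. Every CTX100 library lay below every PBS library in 6 members, which held for 3.55% of all tested genes. All 18 synthesis enzymes had a negative fold change, from -0.02 for Acat2 to -0.88 for Cyp51, and 3 of them were called.

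The called members were Hmgcs1, Cyp51, Msmo1 and Insig1, whose values in every library are given above. Hmgcs1 averaged 51.8 ± 10.7 CPM in CTX100 (SD, n = 5) and 78.2 ± 10.9 CPM in PBS (n = 4), and the fitted log2 change was -0.59 ± 0.14 (SE) (edgeR adjusted p = 0.0485). Cyp51 averaged 30.3 ± 7.51 CPM in CTX100 (SD, n = 5) and 55.8 ± 13.6 CPM in PBS (n = 4) (-0.88 ± 0.18 (SE), edgeR adjusted p = 0.0271) and was called although CTX100 3 overlapped PBS 3. Msmo1 differed by -0.82 ± 0.18 (SE) (edgeR adjusted p = 0.0347) and Insig1 by -0.72 ± 0.17 (SE) (edgeR adjusted p = 0.0434), both without overlap. These calls were near the threshold: none of the 4 was called without PBS 4, CTX100 1, CTX100 4 or CTX100 5, and 1 was called without PBS 3, CTX100 2 or CTX100 3. Over the 9 fits that each left out 1 library, the log2 fold changes stayed between -0.70 and -0.51 for Hmgcs1, -1.02 and -0.73 for Cyp51, -0.91 and -0.70 for Msmo1, and -0.85 and -0.61 for Insig1, with adjusted p-values up to 0.167, 0.11, 0.121 and 0.157. Stard4, Sqle and Hsd17b7 also had every CTX100 library below every PBS library, and were not called, with edgeR adjusted p-values of 0.0545, 0.077 and 0.182. Stard4 was called without PBS 1 (adjusted p 0.0475) or PBS 2 (0.0404). The LXR and efflux genes had log2 fold changes of 0.24 for Nr1h3, 0.12 for Abca1, -0.23 for Abcg1, -0.73 for Mylip (-0.12 without PBS 3) and -0.13 for Nr1h2, and none was called.

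Directly compared, few members were called between the doses by edgeR. In CTX140 against CTX100, 5 of the 31 members were called lower, against 0.475% of all tested genes, and 0 were called higher by edgeR, against 0.775%. At an unadjusted edgeR p under 0.05, 13 members were lower and 3 higher, and 3430 of the 15360 tested genes had such a p in either direction. DESeq2 called 8 members lower and 1 higher, Nr1h3. Every CTX140 library lay below every CTX100 library in 7 members, which held for 3.71% of all tested genes. The median log2 fold change was -0.23 over the 31 members, -0.39 over the 18 enzymes and 0.03 over all tested genes. Idi1 averaged 3.33 ± 1.25 CPM in CTX140 (SD, n = 5) and 8.30 ± 2.09 CPM in CTX100 (n = 5), and the fitted log2 change was -1.32 ± 0.26 (SE) (edgeR adjusted p = 0.0294). Insig1 followed with -0.89 ± 0.16 (SE) (edgeR adjusted p = 0.026) and Cyp51 with -0.80 ± 0.18 (SE) (edgeR adjusted p = 0.0402). Srebf2 averaged 51.8 ± 7.88 CPM in CTX140 (SD, n = 5) and 81.3 ± 12.7 CPM in CTX100 (n = 5) (-0.65 ± 0.15 (SE), edgeR adjusted p = 0.042), and Hmgcs1 differed by -0.61 ± 0.14 (SE) (edgeR adjusted p = 0.042). In all 5 the libraries of the doses did not overlap.

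These calls also depended on single libraries. None of the 5 was called without CTX100 1, CTX100 2, CTX100 3, CTX100 4, CTX140 2 or CTX140 3, when 0 to 1 gene of the whole table was called, and 2 were called without CTX140 1. Without CTX140 5 there were 8, and 1007 over the whole table. The log2 fold changes over these fits stayed between -1.57 and -1.17 for Idi1, -1.0 and -0.78 for Insig1, -0.89 and -0.67 for Cyp51, -0.73 and -0.58 for Srebf2, and -0.68 and -0.52 for Hmgcs1. Fdft1 and Sqle, which also separated the doses completely, had edgeR adjusted p-values of 0.0549 and 0.0692. Msmo1, Dhcr7 and Hsd17b7 were not called between the doses, with log2 fold changes of -0.44, -0.05 and -0.08 and 95% intervals from -0.77 to -0.10, from -0.36 to 0.26 and from -0.55 to 0.38. Nr1h3, Abca1 and Abcg1 had log2 fold changes of 1.03, 1.29 and 1.16 and were not called (edgeR adjusted p = 0.11, 0.125 and 0.142). Nr1h3 was called higher without CTX140 5 (adjusted p 0.037). Without CTX140 1 and CTX140 2 together, the 3 values were 0.20, 0.37 and 0.18 (adjusted p 0.742, 0.709 and 0.849).

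Within a group, many synthesis enzymes had their high or low value in the same library. PBS 3 was the lowest PBS library for 14 of the 18 enzymes, and PBS 2 the highest for 9. In CTX100, CTX100 1 was lowest for 10 and CTX100 3 highest for 11. In CTX140 no library held the lowest value for more than 6. The genes of a library share its RNA and its scaling, so these counts are a description. Ordered by dose, group mean CPM stepped down from PBS through CTX100 to CTX140 in 22 of the 31 members and up in 3.

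Other genes of sterol handling were taken from a list of 33, of which 32 were tested. In CTX140 against PBS, 4 were called lower and 6 higher, with a median log2 fold change of -0.14. Both counts are near the shares over all tested genes, 10.1% lower and 11.1% higher, and are no result about the list. Rnf139 and Erlin2, both of the degradation machinery of the endoplasmic reticulum, had log2 fold changes of -0.69 ± 0.14 and -0.66 ± 0.14 (edgeR adjusted p = 0.00373 and 0.00421). Mbtps1, the first protease that cuts SREBP, had -0.54 ± 0.16 (edgeR adjusted p = 0.0234), a call lost without PBS 3, PBS 4, CTX140 2, CTX140 3, or CTX140 1 and CTX140 2 together (adjusted p up to 0.0898). Lbr, a sterol reductase of the nuclear envelope, had -0.55 ± 0.13 (edgeR adjusted p = 0.00726). Srebf1, the paralogue of Srebf2, was not called, at -0.18 ± 0.15 (edgeR adjusted p = 0.39).

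Among the genes called higher, Cyp7b1, an oxysterol hydroxylase, had 0.542, 0.888, 1.19 and 1.10 CPM in the PBS libraries, 3.98, 2.63, 4.51, 3.12 and 1.86 CPM in the CTX100 libraries and 6.59, 13.3, 8.89, 3.21 and 4.44 CPM in the CTX140 libraries. All treated libraries exceeded all PBS libraries, and the doses overlapped. Its log2 fold change against PBS was 2.96 ± 0.43 in CTX140 (edgeR adjusted p = 0.000371) and 1.79 ± 0.42 in CTX100 (edgeR adjusted p = 0.0427). The CTX100 call was lost under 9 of 18 alternatives, which were limma on log2(FPKM + 1) and leaving out any 1 library other than PBS 2 (adjusted p up to 0.134). Vldlr, a lipoprotein receptor, averaged 5.21 ± 1.46 CPM in CTX140 (SD, n = 5) and 1.34 ± 0.44 CPM in PBS (n = 4), with 1.96 ± 0.29 in CTX140 (edgeR adjusted p = 0.000462) and 1.24 ± 0.29 in CTX100 (edgeR adjusted p = 0.0415). Its CTX100 call was lost under 11 of 18 alternatives, with no filter, both limma fits, the replicate block, and without PBS 3, PBS 4 or any 1 CTX100 library (adjusted p up to 0.155). Gramd1b, which carries cholesterol from the plasma membrane to the endoplasmic reticulum, and Por, the electron donor of Cyp51 and Sqle, were higher by 0.72 ± 0.18 and 0.47 ± 0.14 (edgeR adjusted p = 0.011 and 0.0285). The Por call was lost with only the CTX140 and PBS libraries, with the replicate block and without PBS 3, PBS 4, CTX140 3, CTX140 4 or CTX140 5 (adjusted p up to 0.122), and that of Gramd1b without CTX140 1 and CTX140 2 together (adjusted p 0.0594). Cyb5a and Tmem97 were also called higher. In CTX100 against PBS, edgeR called 0 of the 32 lower and 2 higher, Cyp7b1 and Vldlr. DESeq2 called 0 lower and 3 higher there, and at an unadjusted edgeR p under 0.05 there were 3 lower and 5 higher. In CTX140 against CTX100, edgeR called 0 in either direction, DESeq2 called 1 lower and 2 higher, and at an unadjusted edgeR p under 0.05 there were 3 lower and 6 higher.

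Summed levels of the markers of other cells are given here beside these results. Over all tested genes, 11.1% were called higher and 10.1% lower in CTX140 against PBS, and 1.20% higher in CTX100 against PBS. The 9 fibroblast markers summed to 619 to 1003 CPM in PBS, 1081 to 1856 CPM in CTX100 and 1910 to 5379 CPM in CTX140, with 3 called higher in CTX100 and 8 in CTX140. The 7 adipocyte markers summed to 0.439 to 10.6 CPM in PBS, 16.6 to 94.8 CPM in CTX100 and 44.4 to 341.5 CPM in CTX140, and all 6 that were tested were called higher in CTX140. Among the defining adipocyte genes, Lep was at 0 in 4 libraries, and Plin1 and Cidec in 1 each. The 8 markers of skin and sebaceous cells summed to 14.6 to 33.6 CPM in CTX140, against 5.16 to 8.13 CPM in PBS, and 2 of the 4 that were tested were called higher. Awat1, a defining sebaceous gene, was at 0 in 12 libraries. The 8 genes of dividing cells summed to 1036 to 1262 CPM in PBS, 1484 to 1699 CPM in CTX100 and 938 to 1465 CPM in CTX140, and 4 of them were called higher in CTX100 and 1 lower in CTX140. The 7 markers of blood endothelium summed to 65.8 to 161.8 CPM in PBS, 71.8 to 159.3 CPM in CTX100 and 84.6 to 281.8 CPM in CTX140. EdgeR called 0 of the 7 in CTX140 against PBS, DESeq2 called 1 higher, and 2 were higher at an unadjusted edgeR p under 0.05. Their sums in CTX140 1 and CTX140 2, where Nr1h3, Abca1 and Abcg1 were highest, were 281.8 and 202.2 CPM, above all other libraries. The 7 neutrophil markers summed to 915 to 1826 CPM in PBS and 853 to 1671 CPM in CTX100. In CTX140 1 to 5 they summed to 889, 1150, 1738, 2247 and 1945 CPM. Of these 7, 1 was called higher and 0 lower in CTX140 against PBS, near the shares over all tested genes. Mitochondrially encoded transcripts took 3.46 to 5.87% of PBS counts, 3.09 to 6.87% of CTX100 counts and 4.14 to 9.81% of CTX140 counts. The 9.81% was in CTX140 1, and the next CTX140 library, CTX140 3, was at 5.84%. CTX140 1 also held the highest adipocyte sum. The part of these cell types and of RNA quality in the lower synthesis values and the efflux values was not tested.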

How the data were processed

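Bulk RNA of 14 tumour libraries was analysed: 4 PBS, 5 CTX100 and 5 CTX140, grouped by their labels. The authors deposited a table of raw read counts per Ensembl gene and a table of FPKM, with no pooling of libraries. The submitters' processing notes name the build mm10 and the package DESeq2. How reads were aligned, counted and assigned to strands was not given in the sources used here. Each deposited FPKM equalled the count over gene length and over 1 constant per library proportional to the DESeq2 size factor.

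The robust quasi-likelihood test of edgeR 4.0.16 (R 4.3.3), two-sided, was run on the counts after TMM scaling and the filterByExpr filter, with all 14 libraries in 1 fit and no covariate. P-values were adjusted by Benjamini-Hochberg over the 15360 genes of a contrast, and genes were called below 0.05. A 95% interval is the normal one around the fold change. A simulation with known changes was used to check the test. Reads carry no molecular identifiers, so precision rests on the spread between libraries. The alternatives were other scaling factors, filters and tools (DESeq2 1.42.0, and limma 3.58.1 on log2 of the deposited FPKM plus 1 or 0.1), 2-group fits, a replicate block and leaving out libraries.

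The members, the lists and the motifs were chosen with earlier results of these data known. Values in every library are printed by a rule: for members called in CTX140 against PBS, those with the largest change in their role group (up to 4 of the squalene and sterol steps, up to 3 of the other groups), every LXR and efflux member, and members called in another comparison. Other pathway genes are named where called, up to 8; further names were picked after seeing their values.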

Additional observations from a re-analysis of the deposited data

Results flagged for a closer look

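Of 93 combinations of a member and a group, 2 had a library far from the rest by Dixon's criterion at the 95% level, which chance passes in about 1 group in 20. Idi1 stood apart in CTX140, where CTX140 1 had 5.51 CPM and the next library 3.07 CPM, a gap of 0.766 of the group's range. Even so, CTX140 1 lay below every CTX100 and every PBS library for Idi1. Mylip stood apart in PBS, where PBS 3 had 66.5 CPM and the next library 24.1 CPM, a gap of 0.853 of the range.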

How the results depend on the processing

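In CTX140 against PBS, 11 of the 17 called members were called under all 19 alternatives: Hmgcs1, Idi1, Fdft1, Sqle, Lss, Cyp51, Msmo1, Sc5d, Srebf2, Insig1 and Stard4. The count called lower was 16 and stayed within 1.5 times under each alternative. The count called higher was 1. It was 2 with upper quartile factors or DESeq2, 0 with no filter, limma on log2(FPKM + 1), only the compared groups or without CTX140 1 and CTX140 2, and 0 to 2 when single libraries were left out. Calls over the whole table numbered 3268, 1878 with only the compared groups and 1975 to 3894 when 1 library was left out.

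In CTX100 against PBS, 4 members were called lower, 7 with DESeq2 and 0 to 5 without single libraries. Calls over the whole table numbered 245, 821 with DESeq2, 148 with limma on log2(FPKM + 1), 529 with only the compared groups, and 17 (without PBS 3) to 686 (without PBS 2) when single libraries were left out. In CTX140 against CTX100, 5 members were called lower, 3 with upper quartile factors, 8 with DESeq2, 2 with limma at either pseudocount, 0 without CTX140 1 and CTX140 2, and 0 to 8 without single libraries. None was called higher, 1 with DESeq2 and 0 to 1 without single libraries. Calls over the whole table numbered 192, 1264 with DESeq2, 3 without CTX140 1 and CTX140 2, and 0 to 1007 without single libraries. No called member changed sign. The cause of these differences was not tested.

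The labels do not say that replicate numbers pair the libraries, and no pairing was assumed. Deviations from the group means were correlated between libraries with the same number. The correlations were -0.19 to 0.20 between CTX100 and PBS, -0.19 to 0.43 between CTX140 and PBS, and -0.09 to 0.24 between CTX140 and CTX100. Libraries with different numbers were not compared, so these values cannot decide whether libraries were paired. With a replicate block, 1 member was called lower in CTX100 against PBS, with 181 genes over the whole table, and 293 genes were called in CTX140 against CTX100. Group sizes of 4 and 5 limit the precision, and Fdps held only 5 to 29 counts per library.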

Other observations

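Several genes that link sterol supply to the rest of the cell were in the wider list but not called in CTX140 against PBS. Ch25h, which makes 25-hydroxycholesterol, averaged 14.2 ± 5.52 CPM in CTX140 (SD, n = 5) and 11.0 ± 3.37 CPM in PBS (n = 4). Cyp27a1, the mitochondrial sterol hydroxylase, averaged 7.25 ± 5.2 CPM in CTX140 (n = 5) and 5.68 ± 0.98 CPM in PBS (n = 4). Their log2 fold changes were 0.37 ± 0.34 and 0.35 ± 0.41 (SE), with edgeR adjusted p-values of 0.464 and 0.562. The receptor genes Scarb1 and Lrp1 had log2 fold changes of -0.09 and -0.42 (edgeR adjusted p = 0.711 and 0.165). Pltp, a phospholipid transfer protein known as an LXR target, averaged 81.2 ± 54.2 CPM in CTX140 (n = 5) and 63.5 ± 11.4 CPM in PBS (n = 4), so its spread in CTX140 exceeded the difference of the means.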
